A study of Mus musculus with 70 samples.

Results

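The 10 genes described here switch cytokine signalling on or off and were followed through mouse innate lymphoid cell (ILC) progenitors. They were the inhibitor genes Socs1, Socs2, Socs3 and Cish, the kinase genes Jak1 and Jak3, and the transcription factor genes Stat3, Stat5a, Stat5b and Stat6. They were chosen by name, and all 10 were found by Entrez identifier among the 27179 genes of the 2 deposited count tables. The inhibitors Socs1, Cish and Socs2 and the kinase Jak1 differed among the wild-type stages, and no STAT gene passed the test in any comparison made over both batches.

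Cytokines such as interleukin-7 bind receptors that carry JAK kinases on their inner side. JAK1 sits on the cytokine-specific chain and JAK3 on the shared common gamma chain, and together they phosphorylate STAT proteins, which enter the nucleus and switch on genes. Among those genes are CISH and the SOCS proteins, which bind the receptor or the kinase and shut the signal off, so their transcripts are commonly read as a trace of recent cytokine signalling. Lymphoid progenitors depend on interleukin-7 and STAT5, and group 2 ILC respond to several further cytokines through STAT5 and STAT6.

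The study sorted 100 cells per sample from bone marrow and read polyadenylated transcripts as short tags close to their 3′ ends (CEL-seq). It asked how gene expression changes along the path to ILC and what the loss of Tcf7 or Id2 does to it. Tcf7 encodes the transcription factor TCF-1, and Id2 an inhibitor of E protein transcription factors. The 47 libraries used here came from 2 experiments, called batches below, with 22 libraries in batch 1 and 25 in batch 2.

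The Tcf7-/- mice gave 5 CLP, 4 CILP and 2 ILC2P libraries, and the Id2-/- mice gave 2 CLP, 2 CILP and 1 ILCP library. The wild-type mice gave 8 CLP, 5 a4b7 CLP, 7 CILP, 3 ILCP and 8 ILC2P libraries. CLP are, in this field, common lymphoid progenitors, the reading used here, although the design text spells out CLP and CILP with the same name. The a4b7 CLP are those that express the integrin α4β7, CILP are common innate lymphoid progenitors and ILC2P are progenitors of group 2 ILC. The sort gate of ILCP is not labelled, and Sca1+ CILP is the population of the design text that no label carries. No treatment, age or mouse strain is given, and no cell type or promoter that restricts either deletion. Whether replicates are separate animals is not labelled, and the p-values may therefore rest on a technical spread between libraries.

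The libraries held 19322 to 624668 gene counts (median 134985), and 1 count was worth 1.89 to 34.1 CPM, the unit of level used here. CPM are counts scaled to a common library size, with the library total times its TMM factor as that size. Wild-type ILC2P libraries were the shallowest wild-type group by median, at 19322 to 80873 counts. Some population markers went with the labels. Flt3, a CLP receptor, averaged 396 ± 145 CPM in CLP and 0 in ILC2P, and Zbtb16, the CILP factor PLZF, averaged 335 ± 110 CPM in CILP (SD). Of 19 tested population markers, 1 was called in a4b7 CLP against CLP, lower, and 0 in ILC2P against ILCP. Of all genes tested, 0.0182% were called lower in the first comparison and 0.538% were called in the second. These markers therefore do not check the labels within those pairs. Il1rl1, a group 2 ILC receptor, averaged 0.971 CPM in CILP, 1093 ± 724 CPM in ILCP and 980 ± 531 CPM in ILC2P, so the ILCP libraries carried it too. Tcf7 averaged 30.7 ± 25.9 CPM in Tcf7-/- CILP and 440 ± 252 CPM in wild-type CILP, and Id2 averaged 70.6 ± 62.0 CPM in Id2-/- CILP and 906 ± 759 CPM in wild-type CILP. The labels do not say which exons were deleted, and a 3′ tag outside the deleted part checks nothing. The Tcf7-/- ILC2P library of replicate 1 stood apart, with mature B and plasma cell markers at a summed 361800 CPM against 1198 CPM in replicate 2. The mature T cell markers of the 2 Tcf7-/- ILC2P libraries summed to 894.7 and 9479 CPM, against 11.8 to 925.9 CPM in wild-type ILC2P. With 1 library left out, the log2 fold change of Trac, a T cell receptor gene, in Tcf7-/- against wild-type ILC2P was 1.34 to 11.7. It was lowest without Tcf7-/- replicate 2.

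Cish and Socs1 carried most of the differences described below, and their promoters are shown here because only 1 of them holds the letters to which STAT dimers bind, TTCNNNGAA (N is any base). The sequences are from RefSeq on GRCm38.p6 and run from 250 bases before the annotated start to 50 bases after it. Cish is on chromosome 9 at 107296659 to 107302784 on the + strand, and its window is chr9:107296409-107296708. Socs1 is on chromosome 16 at 10783808 to 10785536 on the − strand, and its window is chr16:10785487-10785786. Capitals mark matches to TTCNNNGAA, which reads the same on both strands.
Cish: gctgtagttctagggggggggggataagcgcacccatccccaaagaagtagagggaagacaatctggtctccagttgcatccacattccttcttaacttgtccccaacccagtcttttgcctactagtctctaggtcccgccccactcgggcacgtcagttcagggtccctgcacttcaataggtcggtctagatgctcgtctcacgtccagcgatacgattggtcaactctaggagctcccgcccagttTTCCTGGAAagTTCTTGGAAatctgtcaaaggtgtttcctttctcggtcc
Socs1: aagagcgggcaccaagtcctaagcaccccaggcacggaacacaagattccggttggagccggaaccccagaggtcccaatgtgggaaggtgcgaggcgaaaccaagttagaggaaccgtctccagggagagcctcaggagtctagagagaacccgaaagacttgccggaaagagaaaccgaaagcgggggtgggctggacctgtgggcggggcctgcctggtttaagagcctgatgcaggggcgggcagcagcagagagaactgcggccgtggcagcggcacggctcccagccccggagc
The Cish window held 2 matches, TTCCTGGAA beginning at the start base itself and TTCTTGGAA beginning 11 bases after it. Among 32851 mouse promoter windows of this length, 8.30% held at least 1 match and 0.457% held 2 or more. Of the 9 members with a window (11 windows in all), Cish and Socs3 held a match, and the 1 match of Socs3 was TTCTTAGAA. A match is a description of letters and not a measured binding site.

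Of the 9 members that could be tested, 4 differed among the 5 wild-type populations. Adjusted p-values (edgeR quasi-likelihood F test, Benjamini-Hochberg over 10972 genes) were 2.80e-06 for Socs1, 7.61e-06 for Cish, 0.00127 for Socs2 and 0.00488 for Jak1. Of all genes tested, 18.2% were called in the same test. The other five did not pass, with adjusted p-values of 0.189 for Stat5b, 0.276 for Stat5a, 0.522 for Jak3, 0.535 for Stat3 and 0.891 for Stat6. These 4 calls held whichever of the 31 wild-type libraries was left out, in batch 1 alone 2 of them held, and DESeq2 called 3, with Socs2 at an adjusted p of 0.0501. Socs3 was not tested, because it did not pass the filter on low counts.

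**Figure D1:**
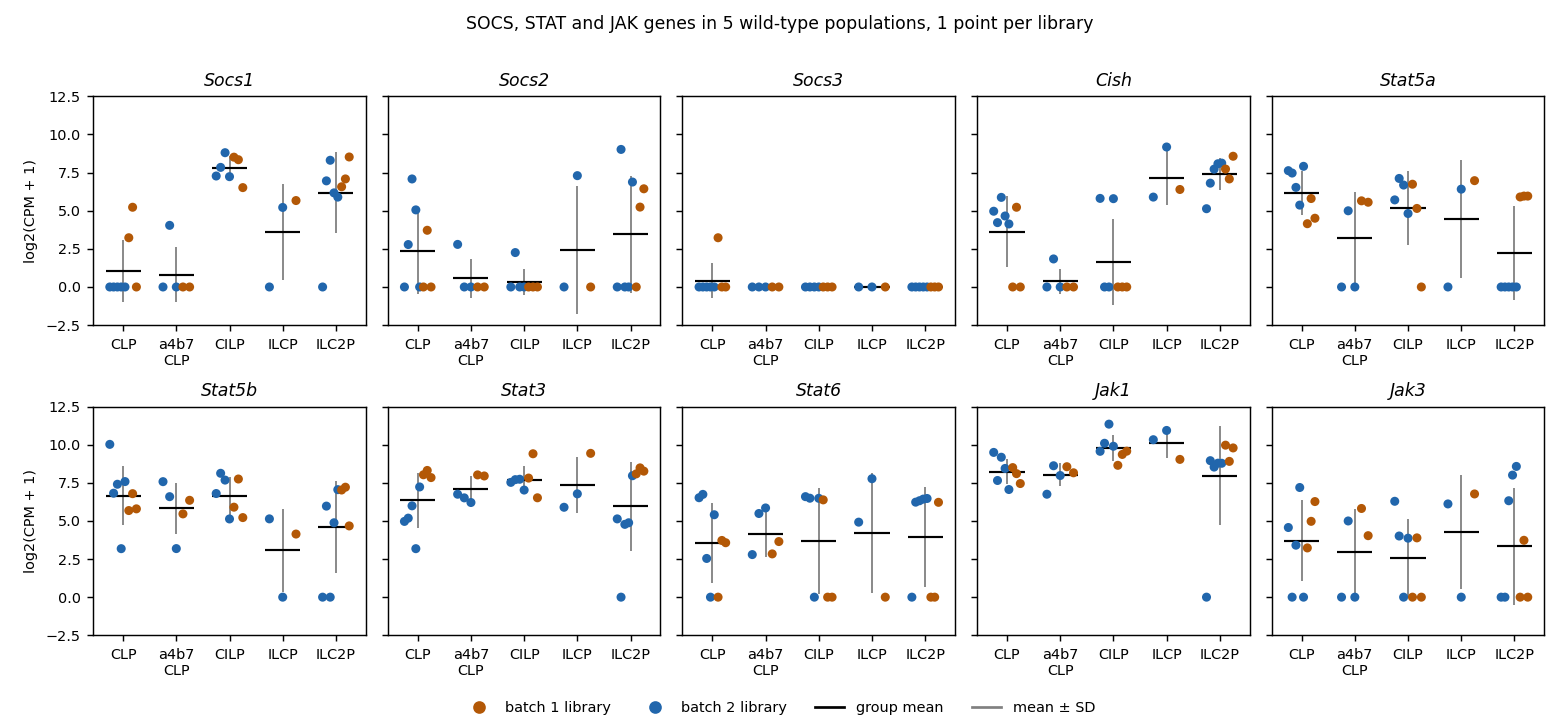
Levels of the 10 members in the 31 wild-type libraries, as log2(CPM + 1) on the vertical axis and by population (CLP, a4b7 CLP, CILP, ILCP, ILC2P) on the horizontal axis. Points are libraries, coloured by batch, and bars are the mean ± SD on that log scale. Socs1 is above 0 in all 7 CILP libraries, Cish in all 3 ILCP and all 8 ILC2P libraries, and Socs3 in 1 CLP library.

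The order of populations by mean level differed between members. For Socs1 it ran CILP, ILC2P, ILCP, CLP and a4b7 CLP, and for Cish it ran ILCP, ILC2P, CLP, CILP and a4b7 CLP. For Jak1 it ran ILCP, CILP, ILC2P, CLP and a4b7 CLP, and for Socs2 it ran ILC2P, ILCP, CLP, a4b7 CLP and CILP. Over the 10 members, 0 of 40 neighbouring pairs in such an order had ranges that did not overlap. The gap between neighbours was larger than both SDs in 1 pair, Cish in ILC2P over CLP.

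Socs1 encodes an inhibitor that blocks the JAK kinases directly, and its transcripts appeared at the CILP stage. CILP had, in its lowest, median and highest library, 90.6, 229 and 447 CPM. Of the 8 CLP libraries, 6 had no count, and the other two had 8.38 and 36.5 CPM. All 7 CILP libraries lay above all 8 CLP libraries. Socs1 averaged 251 ± 131 CPM in CILP and 5.61 ± 12.8 CPM in CLP (SD, n = 7 and 8), a log2 fold change of 5.54 ± 1.03 (SE, adjusted p = 9.67e-05, edgeR). It rose in CILP by 3.91 (log2) in batch 1 alone and by 8.28 in batch 2 alone, where no CLP library had a count. A fitted value against a group without counts depends on a prior count and is no bound, and this holds wherever a group is given as without counts. Leaving out CLP replicate 7, which holds most of the CLP counts, gave 7.04, and the call held whichever of the 15 libraries was left out.

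In a4b7 CLP the 5 libraries had 0, 15.5, 0, 0 and 0 CPM of Socs1. The CILP libraries again lay above all of them, with a log2 fold change of CILP against a4b7 CLP of 5.51 ± 1.23 (adjusted p = 0.00292, edgeR). That value was 8.2 in batch 1 alone, where a4b7 CLP were without counts, and 5.12, not called (adjusted p = 0.237), in batch 2 alone. Without a4b7 CLP replicate 2, the only one with counts, it was 8.65. It was called whichever of the 12 libraries was left out. Myeloid markers summed to 40.5 to 9414 CPM in a4b7 CLP (median 356), against 6.80 to 1920 CPM in CILP and 76.5 to 896 CPM in CLP. The part of these markers in the a4b7 CLP levels was not tested. Jak1 is the other member that rose in both comparisons, so 2 of 9 tested members were higher in CILP than in CLP, where 2.34% of all genes tested were called higher, and 2 of 9 were higher in CILP than in a4b7 CLP, where 0.911% were.

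Socs1 stayed above CLP in ILC2P. The lowest, median and highest ILC2P libraries had 0, 109 and 368 CPM, and 7 of 8 had counts. ILC2P averaged 146 ± 129 CPM, and the log2 fold change of ILC2P against CLP was 4.68 ± 1.00 (adjusted p = 0.000514, edgeR). It was 3.48 in batch 1 alone, 7.23 in batch 2 alone, where CLP were without counts, and 6.17 without CLP replicate 7. The ranges of ILC2P and CLP overlapped, because ILC2P replicate 1, the shallowest library of all, had no Socs1 count. Between CILP and ILC2P the difference did not pass (log2 fold change of ILC2P against CILP −0.87 ± 0.83, adjusted p = 0.592). The 3 ILCP libraries had 0, 36.2 and 49.8 CPM, all below the lowest CILP library, and the difference did not pass either (log2 fold change of ILCP against CILP −3.33 ± 1.37, adjusted p = 0.36).

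Some T cell markers were, like Socs1, higher in CILP than in CLP. Of 7 tested mature T cell markers, 3 were called higher, where 2.34% of all genes tested were. The 9 mature T cell markers summed to 173 to 6759 CPM in CILP (median 2806) and to 0 to 45.4 CPM in CLP, and most of it was Trbc1, a T cell receptor constant gene that averaged 2334 ± 2299 CPM in CILP. Trbc2, the other constant gene of that chain, with which it may share reads, averaged 582 ± 631 CPM in CILP and 10.9 ± 13.9 CPM in CLP (adjusted p = 3.74e-06, edgeR). Of the defining T cell genes, Cd3d averaged 69.6 ± 75.2 CPM in CILP, with counts in 5 of 7 libraries, and had none in CLP (adjusted p = 0.00317). Cd3e had 2 counts over the 7 CILP libraries (2.20 CPM on average) and none in CLP. Socs1 in the 3 CILP libraries of batch 1 was 364, 325 and 90.6 CPM where the T cell markers summed to 353, 173 and 381 CPM. In the 4 libraries of batch 2 Socs1 was 154, 229, 447 and 149.6 CPM where they summed to 6759, 4773, 2806 and 6031 CPM. The low T cell marker sums were thus those of batch 1. Mast cell, basophil and eosinophil markers were also higher in CILP, at a summed 36.2 to 4420 CPM against 0 to 11.8 CPM in CLP (1 of 6 tested called, Cpa3, a mast cell protease gene). Dendritic cell markers moved the other way, with 1 of 9 tested higher and 7 lower in CILP than in CLP (median log2 fold change −4.51), and the same counts in ILC2P against CLP (median −4.78) and in CILP against a4b7 CLP (median −5.09). The 10 markers summed to 266.5 to 836 CPM in CILP and 105.5 to 750.1 CPM in ILC2P, against 1121 to 9793 CPM in CLP and 2081 to 7859 CPM in a4b7 CLP. The list includes Flt3 and Irf8, which CLP also express. The part of T cell, mast cell and dendritic cell markers in the Socs1, Jak1 and Cish results was not tested.

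Cish encodes an inhibitor that binds activated cytokine receptors, and its gene is a direct target of STAT5. Its transcripts marked the ILCP and ILC2P libraries. Cish in the lowest, median and highest ILC2P libraries was at 34.1, 211 and 379.9 CPM, against 0, 0 and 55.1 CPM in CILP and 0, 20.9 and 57.7 CPM in CLP. All 8 ILC2P libraries had counts, against 2 of 7 CILP and 6 of 8 CLP libraries. Only ILC2P replicate 1, with a single Cish count, lay within the CILP and CLP ranges. Cish overlaps the antisense gene Gm17041 by 1459 bases and the pseudogene Gm17040 by 1167 bases on the opposite strand (GENCODE vM21), so a share of its counts could be theirs if the counting ignored strand.

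Cish averaged 204 ± 109 CPM in ILC2P and 15.6 ± 26.7 CPM in CILP (SD, n = 8 and 7), a log2 fold change of 3.79 ± 1.01 (adjusted p = 0.0156, edgeR). It was 8.06 in batch 1 alone (adjusted p = 0.00992), where no CILP library had a Cish count, and 2.76 in batch 2 alone (adjusted p = 0.234). Without CILP replicate 1 it was 4.48, and no single library of the 15 ended the call when left out. Socs2 was the other member called, so 2 of 9 tested members were higher in ILC2P than in CILP, where 1.07% of all genes tested were. Over all genes, 117 were called higher and 463 lower in ILC2P than in CILP, and with DESeq2's size factors 160 higher and 231 lower, with a median change over all genes of −0.56 (log2) with TMM and −0.23 with those size factors. The members' median was −0.86. Changes of Socs2 and Cish were larger with that scaling, at 6.24 and 4.22.

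Against CLP, whose Cish averaged 22.9 ± 19.2 CPM, ILC2P were higher by a log2 fold change of 3.24 ± 0.92 (adjusted p = 0.0124, edgeR). The value was 4.04 in batch 1 alone (adjusted p = 0.0681) and 2.63 in batch 2 alone (adjusted p = 0.162), so neither batch reached the threshold by itself. With Socs1, 2 of 9 tested members were higher in ILC2P than in CLP, where 3.45% of all genes tested were called higher. The median change was 0.78 (log2) over the members and −0.43 over all genes. Both were called whichever of the 16 libraries was left out.

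The 3 ILCP libraries had 58.5, 579 and 83.1 CPM of Cish, each above all 7 CILP libraries. The log2 fold change of ILCP against CILP was 3.74 ± 1.11, which did not pass in edgeR (adjusted p = 0.11) and passed in limma-voom (adjusted p = 0.0066), with adjusted p-values of 0.0066 to 0.759 over the 9 alternatives that tested it. In that comparison 0 of 9 members were called, with 0.374% of all genes called, 4 members at an unadjusted p under 0.05, 0 in DESeq2 and 1 in limma-voom. Over all genes limma-voom called 172 there, against 41 in edgeR. Erythroid markers summed to 16520 CPM in ILCP replicate 1, where Cish was at 58.5 CPM, and to 0 in the other two. One of them, the haemoglobin gene Hba-a1, whose reads may be shared with Hba-a2, was called higher in ILCP than in CILP (adjusted p = 0.00496, edgeR) and was not called without that library (adjusted p = 0.927). The part of these markers in the ILCP levels was not tested. Between ILC2P and ILCP, Cish differed by 0.05 ± 0.73 (log2, adjusted p = 1.00). An SE of the kind used here is unreliable for a change so near 0, and equal levels are not shown. There 0 of 9 members were called by edgeR, DESeq2 or limma-voom, against 0.538% of all genes, and Jak1 had an unadjusted p under 0.05.

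Some immediate early and heat shock genes, which respond to handling, were, like Cish, higher in ILCP and ILC2P. Of 18 tested, 1 was called higher in ILCP than in CILP, 2 in ILC2P than in CILP and 5 in ILC2P than in CLP. Of all genes tested, 0.31%, 1.07% and 3.45% were called higher there. The ILCP call, Junb, was lost without ILCP replicate 2 (adjusted p = 0.54, edgeR). With 1 library left out, Klf6 held in 9 of 15 fits of ILC2P against CILP and Dusp1 in 7 of 16 against CLP. Junb held in all fits of both. The 19 genes of that list summed to 6831 to 42000 CPM in ILCP and 2728 to 28000 CPM in ILC2P (median 12980), against 2812 to 7282 CPM in CILP (median 4145) and 2059 to 7485 CPM in CLP (median 5125). Their part in the result was not tested. ILC2P libraries were also shallow, and 1 count there was worth 11.8 to 34.1 CPM.

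Socs2 encodes an inhibitor best known for damping growth hormone signalling, and its transcripts were patchy. In ILC2P 4 of 8 libraries had none, and the other four had 36.8, 85.8, 117 and 518 CPM. In CILP 1 of 7 libraries had Socs2, at 3.78 CPM from 2 counts. The ranges overlapped at 0. The log2 fold change of ILC2P against CILP was 5.92 ± 1.45 (adjusted p = 0.00789, edgeR). The ratio of 60 to 2 counts, each per TMM-scaled total of its group, was 76.3 with a 95% counting interval of 20.2 to 645. Within batches the log2 value was 5.52 and 5.96, neither called. In batch 1 CILP were without Socs2 counts, so the value of that batch is no bound. Leaving out ILC2P replicate 2 gave 4.79 and leaving out CILP replicate 2 gave 6.83, and the call held in each of 15 such fits.

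In CLP 4 of 8 libraries had Socs2, at 5.88, 12.2, 32.3 and 134.7 CPM. CILP against CLP gave a log2 fold change of −3.77 ± 1.37, which did not pass (adjusted p = 0.102), and the ratio of 2 to 35 counts was 0.0475 (95% counting interval 0.00553 to 0.185). The 3 ILCP libraries had 0, 157 and 0 CPM, and the 5 a4b7 CLP libraries had 5.93 CPM in replicate 1 and 0 in the others. In a4b7 CLP against CLP 0 of 9 members were called by edgeR, DESeq2 or limma-voom, with 0.0456% of all genes called in edgeR. Socs2, Cish and Stat5a had an unadjusted p under 0.05 there, and Cish gave a log2 fold change of −3.90 ± 1.29 (adjusted p = 0.319).

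Socs3, an inhibitor of the receptors that signal through STAT3, had 1 count in all 47 libraries, in CLP replicate 6 (8.38 CPM). The other 46 libraries had none. In bulk samples such as these, fewer expressing cells and less RNA per cell cannot be told apart, and this holds for every level given here.

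Jak1, the kinase used by interleukin-7 and most other lymphoid cytokines, was measured in every wild-type library but ILC2P replicate 1. In CILP the lowest, median and highest libraries had 399.7, 761 and 2602 CPM, against 132, 310.3 and 719 CPM in CLP. The ranges overlapped, with 5 of 7 CILP libraries above the highest CLP library. Jak1 averaged 1031 ± 726 CPM in CILP and 348 ± 205 CPM in CLP (SD, n = 7 and 8), a log2 fold change of 1.56 ± 0.46 (adjusted p = 0.0293, edgeR). The call was lost without CILP replicate 3 (1.15, adjusted p = 0.173) and without CLP replicate 2, 5 or 8 (adjusted p = 0.0591, 0.0648 and 0.0597), and held in 11 of 15 such fits. It was 1.16 (adjusted p = 0.289) in batch 1 alone and 1.76 (adjusted p = 0.182) in batch 2 alone.

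The 5 a4b7 CLP libraries had 107, 392, 251, 375 and 284 CPM of Jak1, all below the lowest CILP library. The log2 fold change of CILP against a4b7 CLP was 1.83 ± 0.54, with an adjusted p of 0.0472 (edgeR) close to the threshold. It held in 2 of 12 fits that left out 1 library, those without CILP replicate 1 or 5. Without any 1 of the 5 a4b7 CLP libraries or of CILP replicates 2, 3, 4, 6 and 7 the adjusted p was 0.0519 to 0.166, with log2 values of 1.44 to 1.99. In batch 1 alone the value was 0.92 and in batch 2 alone 2.42, neither called.

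The 3 ILCP libraries had 1282, 1953 and 523 CPM of Jak1, and the lowest, median and highest ILC2P libraries had 0, 459 and 1001 CPM. These ranges overlapped with each other and with CILP. The log2 fold change of ILC2P against CILP was −0.94 ± 0.46 (adjusted p = 0.213) and that of ILC2P against ILCP −1.19 ± 0.58 (adjusted p = 0.379). ILC2P against CLP gave 0.62 ± 0.45 (adjusted p = 0.392).

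**Figure D2:**
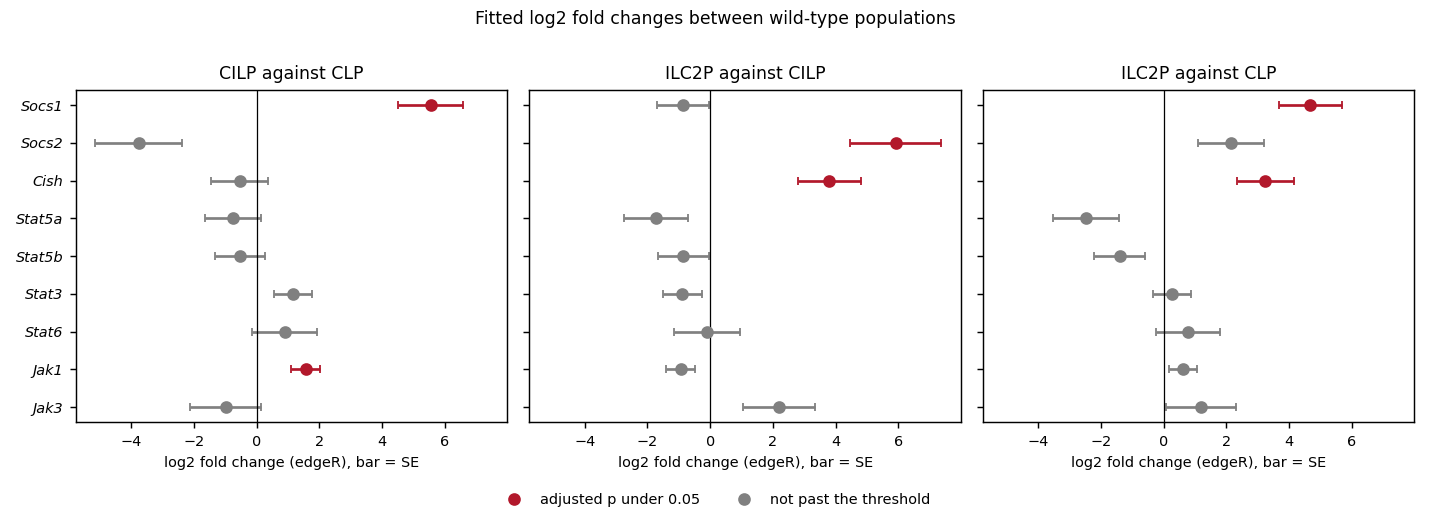
Log2 fold changes with their SE (horizontal axis) of the 9 tested members (vertical axis) in CILP against CLP, ILC2P against CILP and ILC2P against CLP. Red marks an adjusted p under 0.05: Socs1 and Jak1 in the first, Socs2 and Cish in the second, and Socs1 and Cish in the last.

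Jak3, the partner of the common gamma chain, was read in few counts. CLP ranged from 0 to 145 CPM, a4b7 CLP from 0 to 55.3 CPM and CILP from 0 to 77.1 CPM. The 3 ILCP libraries had 68.3, 0 and 108 CPM, and the lowest, median and highest ILC2P libraries had 0, 6.13 and 380.1 CPM. All 5 ranges began at 0 and overlapped. ILC2P against CILP gave a log2 fold change of 2.19 ± 1.15 (adjusted p = 0.246). By batch, ILC2P averaged 4.09 CPM in batch 1 and 143 CPM in batch 2. Jak3 shares 1362 bases on the same strand with Insl3 in the GENCODE vM21 annotation, so its counts are uncertain where the counting could assign a tag to either gene.

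Stat5a and Stat5b encode the near-identical factors that carry the interleukin-7 and interleukin-2 signal. The lowest, median and highest CLP libraries had 16.8, 73.1 and 239.9 CPM of Stat5a, CILP had 0, 51.4 and 138 CPM, and ILC2P had 0, 0 and 61.3 CPM. The a4b7 CLP libraries had 0, 30.9, 0, 49.2 and 46.1 CPM, and the ILCP libraries 0, 84.4 and 125 CPM. The groups overlapped throughout.

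The Stat5a difference between ILC2P and CLP depended on the batch. Over both batches the log2 fold change was −2.49 ± 1.05 (adjusted p = 0.105, edgeR). In batch 1 the means were 60.5 CPM in ILC2P and 31.1 CPM in CLP (log2 fold change 0.88, adjusted p = 0.778). In batch 2 they were 0 CPM in ILC2P and 149 CPM in CLP (log2 fold change −7.58, adjusted p = 0.0204). The adjusted p over the 9 alternatives that tested it ran from 0.0204 to 0.778, and batch 2 alone was the only one under 0.05. The direction is therefore not the same in the 2 batches, and no direction is given for the population.

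Stat5b was read in every CLP, a4b7 CLP and CILP library. The lowest, median and highest CLP libraries had 8.07, 111 and 1037 CPM, CILP had 34.0, 110.1 and 278 CPM, and ILC2P had 0, 45.1 and 147 CPM. The a4b7 CLP libraries had 189.7, 95.4, 8.10, 43.0 and 80.7 CPM, and the ILCP libraries 34.1, 0 and 16.6 CPM. CLP replicate 1 stood far above all others. Stat5b had an unadjusted p under 0.05 in ILCP against CILP (log2 fold change −2.86 ± 1.27, adjusted p = 0.403). Stat5a and Stat5b lie 346 bases apart on chromosome 11 on opposite strands, and Stat5a and Stat3 overlap by 72 bases on opposite strands in GENCODE vM21. No source used here says whether the counting used strand, so reads near those ends are uncertain.

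Stat3, the factor downstream of interleukin-6 and interleukin-23, was read in 30 of 31 wild-type libraries, and its level went with the batch more than with the population. CLP averaged 268 CPM in batch 1 and 57.0 CPM in batch 2, and ILC2P averaged 311 and 67.5 CPM. In a4b7 CLP the 2 batches averaged 252 and 89.9 CPM, and in CILP 330.2 and 183 CPM. Batch 1 had the higher mean in each of these 4 populations. In CILP that rested on replicate 6, because the batch 1 libraries had 223, 677 and 90.6 CPM and those of batch 2 had 129 to 212 CPM. With the batch in the fit, CILP against CLP gave a log2 fold change of 1.16 ± 0.60 (adjusted p = 0.32), and the other wild-type comparisons gave between −0.89 and 0.81.

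Stat6, which carries the interleukin-4 and interleukin-13 signal, was low in every population. CLP had 0 to 106 CPM, a4b7 CLP had 5.93 to 56.7 CPM, CILP had 0 to 95.5 CPM, ILCP had 29.3, 217 and 0 CPM, and ILC2P had 0 to 87.7 CPM. No population stood apart. Its log2 fold changes in the wild-type comparisons lay between −0.29 and 1.18, with adjusted p-values of 0.693 to 1.00.

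The other genes of the pathway were described from lists of kinases, receptors and responsive genes. Of 5 JAK and STAT genes outside the members, 1 was called, Jak2, which averaged 329.6 ± 591 CPM in CILP and 32.3 ± 31.8 CPM in CLP (log2 fold change 3.31 ± 0.78, adjusted p = 0.00411, edgeR). That call rested on CILP replicate 3, which had 1662 CPM where the other six had 18.1 to 204.1 CPM. Without it the log2 fold change was 1.78 and Jak2 was not called (adjusted p = 0.226). In ILC2P Jak2 averaged 149.8 ± 112.5 CPM and was called against CLP (adjusted p = 0.0362), a call that held in 9 of 16 fits that left out 1 library (adjusted p up to 0.0982). Of 13 tested SOCS, PIAS and phosphatase genes, 0 were called in CILP against CLP. In ILC2P against CLP, where 8% of all genes were called lower, 1 fell, Ptpn6, a phosphatase that turns off receptor signals, at 21.2 ± 32.4 CPM in ILC2P and 152 ± 118 CPM in CLP (adjusted p = 0.0411). That call held in 5 of 16 fits that left out 1 library (adjusted p up to 0.0855).

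Of 7 tested common gamma chain receptor genes, 1 rose in CILP against CLP and 3 rose and 1 fell in ILC2P against CLP. Of all genes tested, 2.34% were called higher in the first comparison, and 3.45% higher and 8% lower in the second. Il2rg, the shared chain itself, averaged 391 ± 147 CPM in CILP and 104 ± 57.2 CPM in CLP (adjusted p = 0.0329), and 505 ± 332 CPM in ILC2P (adjusted p = 0.0034 against CLP). With 1 library left out the CILP call held in 9 of 15 fits (adjusted p up to 0.0687) and the ILC2P call in all 16. Against a4b7 CLP, at 23.6 ± 21.97 CPM, CILP were higher too (log2 fold change 3.95, adjusted p = 0.000317). Il2ra, the high-affinity interleukin-2 receptor chain, averaged 327 ± 129.5 CPM in ILCP and 402 ± 243 CPM in ILC2P, against 1.05 CPM in CILP (adjusted p = 1.09e-05 and 2.98e-07). Il2rb fell in ILC2P, at 8.52 ± 24.1 CPM against 111 ± 70.0 CPM in CILP (adjusted p = 0.0206).

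Among 16 tested STAT5-responsive genes, 2 rose in CILP against CLP, where 2.34% of all genes were called higher. In ILC2P against CILP 1 rose and 2 fell, where 1.07% of all genes were called higher and 4.22% lower. Bcl2, the survival gene induced by interleukin-7, averaged 1932 ± 496 CPM in CILP and 236 ± 192 CPM in CLP (log2 fold change 3.03 ± 0.47, adjusted p = 2.02e-06). It averaged 204 ± 139.5 CPM in ILC2P, a log2 fold change against CILP of −3.20 (adjusted p = 8.00e-07), and 204 ± 118 CPM in ILCP (adjusted p = 0.0098 against CILP, held in 8 of 10 fits that left out 1 library, and 0.123 without ILCP replicate 3). Cish and Bcl2, both STAT5-responsive, thus moved in opposite directions between CILP and ILC2P, each called in its own test. Of 10 STAT3 and STAT6 responsive genes, 2 rose and 1 fell in ILC2P against CILP, with Junb at 990.0 ± 585 CPM in ILC2P and 191 ± 149 CPM in CILP (adjusted p = 0.00844). Junb is also on the list of immediate early and heat shock genes, so its call is counted in both lists.

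**Figure D3:**
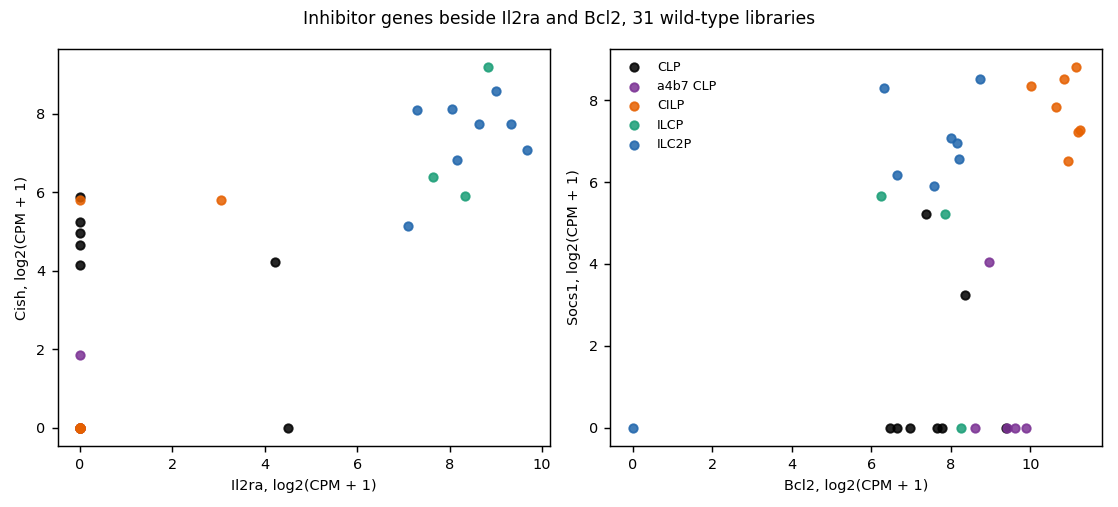
Cish against Il2ra and Socs1 against Bcl2 in the 31 wild-type libraries, both axes as log2(CPM + 1), with each point a library coloured by population. Il2ra and Cish are both above 0 in 13 libraries (8 of 8 ILC2P, 3 of 3 ILCP, 1 CILP and 1 CLP) and both at 0 in 10, whose points lie on top of each other.

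The genes whose pattern was most like each called member were ranked by Pearson's r of log2(CPM + 1) over the 31 wild-type libraries, among 7269 genes with a mean of at least 20 CPM. For Socs1 they were Ikzf3 (0.821), Rarg (0.778) and Trib2 (0.760). For Cish they were Rnf128 (0.817), Il1rl1 (0.801) and Il2ra (0.762). For Jak1 they were Ptprc (0.858), Clk1 (0.858) and Rap1a (0.848), and for Socs2 the highest was Cpne7 at 0.620. These are descriptions over libraries that share populations, batches and depth. Bcl2 and Socs1, both high in CILP, gave r = 0.364.

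**Figure D4:**
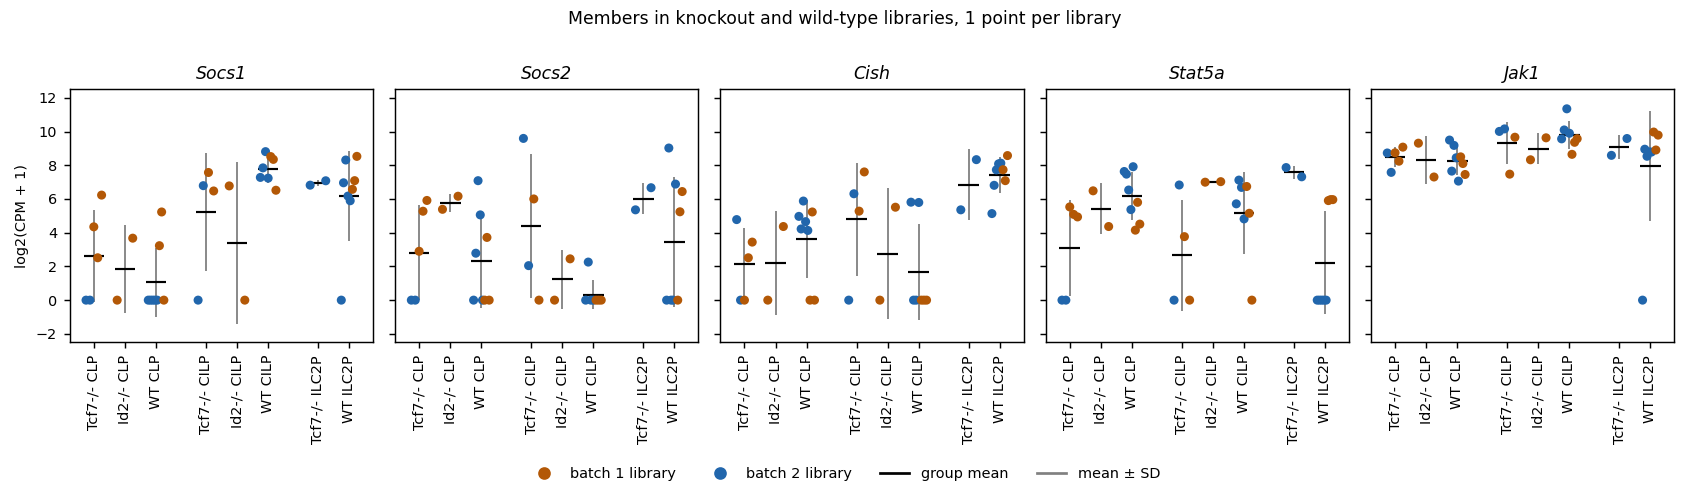
Levels of Socs1, Socs2, Cish, Stat5a and Jak1 as log2(CPM + 1) in knockout libraries, each drawn left of the wild-type libraries of its population. Points are libraries coloured by batch and bars are the mean ± SD on that scale. Socs2 in Tcf7-/- CILP reaches 770.1 CPM in 1 library, above the 3.78 CPM maximum of the wild type.

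The Tcf7 knockout asked what TCF-1 does at each stage. In CILP 1 of 9 tested members was called higher in the knockout, Socs2, where 0.419% of all genes were. The 4 Tcf7-/- CILP libraries had 770.1, 3.13, 63.0 and 0 CPM of Socs2, from 39, 1, 5 and 0 counts, against 3.78 CPM in 1 of 7 wild-type CILP libraries and 0 in the others. In all, 2 of 4 knockout libraries lay above all wild-type ones. The log2 fold change was 6.80 ± 1.56 (adjusted p = 0.0287, edgeR), and the ratio of 45 to 2 counts was 60.5 (95% counting interval 15.8 to 515).

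That call rested on few libraries. It was 5.25 in batch 1 alone, where wild-type CILP were without counts, and 7.51 in batch 2 alone, called in neither. Without Tcf7-/- CILP replicate 1 it was 4.52 (adjusted p = 0.447), and it was also lost without any 1 of wild-type CILP replicates 1, 2, 3, 4 and 6 (adjusted p = 0.0519 to 0.0706), so it held in 5 of 11 such fits. DESeq2 (6.96, adjusted p = 0.0628) and limma-voom (2.92, adjusted p = 0.19) did not call it, and the 9 alternatives that tested it gave adjusted p-values of 0.00185 to 0.406. In the 4 Tcf7-/- CILP libraries, erythroid markers summed to 11530, 2376, 239.5 and 32240 CPM and myeloid markers to 9655, 1374, 0 and 10210 CPM. In wild-type CILP they summed to 0 to 1317 CPM and 6.80 to 1920 CPM. Replicate 4, with the highest sums, had no Socs2 count, and the part of these markers in the Socs2 difference was not tested.

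Socs1 had 0, 109.5, 189 and 87.9 CPM in Tcf7-/- CILP, within and below the wild-type range of 90.6 to 447 CPM. Its mean was 96.6 ± 77.7 CPM in the knockout and 251 ± 131 CPM in the wild type, and the log2 fold change of −1.60 ± 1.06 did not pass (adjusted p = 0.598). Cish had 0, 78.2, 37.8 and 193 CPM in the knockout, and 3 of 4 libraries had counts against 2 of 7 in the wild type. Its log2 fold change of 2.55 ± 1.13 did not pass (adjusted p = 0.373). Jak1 had 1027, 1139, 176 and 809 CPM in the knockout, overlapping the wild type (−0.38 ± 0.55, adjusted p = 0.869). The STAT genes gave log2 values of −0.90 to −0.42, none called.

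In CLP 0 of 9 members were called in the Tcf7 knockout by edgeR, DESeq2 or limma-voom, and 0% of all genes were called in edgeR. Stat5a had an unadjusted p under 0.05. It had 0, 0, 45.2, 32.9 and 29.6 CPM in the knockout and 16.8 to 239.9 CPM in the wild type, with a log2 fold change of −2.69 ± 1.21 (adjusted p = 0.669). Socs1 had 0, 0, 19.4, 4.71 and 74.0 CPM in the knockout against 0 to 36.5 CPM in the wild type, and the ranges overlapped.

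In ILC2P 0 of 9 members were called in the Tcf7 knockout by edgeR, DESeq2 or limma-voom, where 2.57% of all genes were called in edgeR. Stat5a had 232 and 158 CPM in the 2 knockout libraries, both above the wild-type maximum of 61.3 CPM, with a log2 fold change of 3.45 ± 1.34 (unadjusted p = 0.0115, adjusted p = 0.177). Both knockout libraries were of batch 2, where all 5 wild-type ILC2P libraries had no Stat5a count. Replicate 1, the library with plasma cell markers, had 232 CPM and replicate 2 had 158 CPM. In these 2 libraries mature T cell markers summed to 894.7 and 9479 CPM, the lower sum first. Erythroid markers summed to 139 and 17190 CPM and myeloid markers to 143.8 and 21460 CPM, again the lower first. The highest wild-type ILC2P sums were 925.9, 852.3 and 3512 CPM in the same order of lists. The part of plasma cell, T cell, erythroid and myeloid markers in the result was not tested. Socs1 (112 and 134 CPM), Cish (39.9 and 321 CPM) and Socs2 (39.9 and 100.6 CPM) lay within the wild-type ranges.

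The Id2 knockout had 2 CLP libraries, 2 CILP libraries and 1 ILCP library, all in batch 1. In CILP 0 of 9 members were called in edgeR and DESeq2, none at an unadjusted p under 0.05 (0), and 1 in limma-voom, where 0.0911% of all genes were called in edgeR. That member was Socs1, with 108 and 0 CPM in Id2-/- CILP against 90.6 to 447 CPM in wild-type CILP. Its log2 fold change was −2.94 ± 1.57 in edgeR (adjusted p = 0.804) and −4.20 in limma-voom (adjusted p = 0.00628), with adjusted p-values of 0.00628 to 1.00 over 9 alternatives. Over all genes limma-voom called 529 there, against 10 in edgeR. Jak1 had 319 and 789 CPM, Cish had 0 and 44.6 CPM, and Stat5a had 127 and 129 CPM in Id2-/- CILP. Mast cell markers summed to 6531 and 3777 CPM in Id2-/- CILP and to 36.2 to 4420 CPM in wild-type CILP. Erythroid markers summed to 2512 to 3086 CPM in Id2-/- CILP, above the 0 to 1317 CPM of wild-type CILP. Myeloid markers, at 482 to 540 CPM, lay within the wild-type range of 6.80 to 1920 CPM. The part of these markers in these values was not tested.

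In Id2-/- CLP 0 of 9 members were called by edgeR, DESeq2 or limma-voom and 0 had an unadjusted p under 0.05, where 0.0365% of all genes were called. Socs2 had 40.8 and 70.6 CPM in the knockout and 0 to 134.7 CPM in the wild type (log2 fold change 2.75 ± 1.5, adjusted p = 1.00). The single Id2-/- ILCP library, which has no replicate and was compared with nothing, had 1010.4 CPM of Jak1, 129 CPM of Stat3, 73.5 CPM of Socs1 and 27.6 CPM of Cish. In that library erythroid markers summed to 19040 CPM and myeloid markers to 16250 CPM. In wild-type ILCP they summed to 0 to 16520 CPM and 58.2 to 133 CPM. The part of these markers in its levels was not tested.

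The step from CLP to CILP was also compared between genotypes, as the difference of the 2 log2 fold changes. For the Tcf7 knockout minus the wild type 0 of 9 members were called by edgeR, DESeq2 or limma-voom (0.0456% of all genes in edgeR), with Socs1, Socs2 and Cish at an unadjusted p under 0.05. The difference was −3.05 ± 1.47 for Socs1 (adjusted p = 0.516), 5.49 ± 2.00 for Socs2 (adjusted p = 0.322) and 3.8 ± 1.56 for Cish (adjusted p = 0.421). For the Id2 knockout 0 of 9 were called by edgeR, DESeq2 or limma-voom and 0 had an unadjusted p under 0.05 (0.0365% of all genes), and Socs1 gave −2.67 ± 2.09 (adjusted p = 1.00). Neither knockout was shown to change the rise of Socs1 at the CILP stage.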

How the data were processed

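Populations of 100 cells were sorted into lysis buffer and sequenced by CEL-seq, per the labels' protocols. The authors deposited raw counts of reads by Entrez gene, with a table for each batch. The authors used, per the submitters' processing notes, CASAVA 1.8.2, the mouse build mm10, featureCounts, limma and edgeR (3.8.2 and 3.22.0). Aligner and strand setting are both not given in the sources read. Molecular identifiers are not mentioned, and intervals on counts therefore cover counting error only. RefSeq on GRCm38.p6 gave symbols for 25275 identifiers (92.99%), and 0 value columns lacked a sample.

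Groups came from the labels. Of 70 samples, 4 are technical repeats and were summed with the library they repeat, which left 66 libraries. The 12 control wells, 6 libraries labelled Nfil, whose knockout the labels call unsuccessful, and 1 wild-type CILP library that the labels call an outlier were not fitted. Replicates were numbered in accession order.

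Counts were compared with edgeR 4.0.16 in R 4.3.3: filterByExpr (at least 10 counts, 15 in total), TMM scaling, and 1 robust quasi-likelihood fit over 47 libraries of 11 groups with a batch term (10972 genes, 35 residual degrees of freedom, biological coefficient of variation 109.7%). Groups of 1 or 2 libraries borrow the spread of the other groups. The adjusted p given throughout is Benjamini-Hochberg over all genes tested, and a call is an adjusted p under 0.05. An SE is the size of the log2 fold change divided by the square root of F. It is unreliable for changes near 0, and was 19.8 for Socs2 in CILP against a4b7 CLP, at −0.22. Means ± SD are of TMM-scaled CPM. The tools tried in its place were DESeq2 1.42.0, limma-voom (3.58.1) with quality weights, and edgeR with DESeq2's size factors. The fit was also repeated without the filter, without the batch term, within batch 1 and batch 2, with the outlier, without 2 wild-type ILC2P libraries of low depth (below 20% of the batch median), on the compared groups only, and without each library in turn (46 fits).

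The rule for named genes takes all 10 members in every comparison, and those not named in a comparison did not pass there. Tcf7 and Id2 are named as checks of the knockouts, and Cd3e as a defining T cell marker (chosen after its values were seen). Of the pathway and marker lists, the called genes with the smallest adjusted p are named, at most 4 per list and comparison. For each member called among the wild-type populations, the 3 genes with the most similar pattern were ranked, and all 3 are named except for Socs2. Members and lists were chosen with earlier results of these data known, so their counts describe these libraries and support nothing by themselves.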

Additional observations from a re-analysis of the deposited data

Results flagged for a closer look

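A gap test of single libraries (Dixon's, in groups of 4 to 10) set 1 library apart from the rest of its group in 16 of 55 combinations of member and group. Its rate by chance of about 1 in 20 holds for normally distributed values and not for CPM with many zeros. Where all other libraries are at 0, any count sets a library apart. The 16 are therefore not read as more than chance gives. In most of the 16 the other libraries were at or near 0. In wild-type CLP they were Socs1 at 36.5 CPM in replicate 7, Socs2 at 134.7 CPM in replicate 3, Socs3 at 8.38 CPM in replicate 6 and Stat5b at 1037 CPM in replicate 1. In a4b7 CLP they were Cish at 2.58 CPM and Socs1 at 15.5 CPM in replicate 2 and Socs2 at 5.93 CPM in replicate 1. In wild-type CILP they were Jak1 at 2602 CPM in replicate 3, Jak3 at 77.1 CPM in replicate 1, Socs2 at 3.78 CPM in replicate 2 and Stat3 at 677 CPM in replicate 6. In wild-type ILC2P it was Socs2 at 518 CPM in replicate 2. In Tcf7-/- CLP they were Socs1 at 74.0 CPM in replicate 5 and Stat3 at 287 CPM in replicate 4, and in Tcf7-/- CILP Socs2 at 770.1 CPM in replicate 1 and Stat5a at 113 CPM in replicate 2.

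Libraries left out of the comparisons held some member transcripts above the level in the 12 control wells, which contained spike-in RNA alone. Over the summed 6 Nfil libraries, Jak1 was at 361 CPM of gene counts against 299 CPM in the control wells, Jak3 at 48.8 CPM, Stat5a at 134 CPM and Stat5b at 56.1 CPM, each against 0 in the wells. Cish (104.9 CPM against 512 CPM in the wells), Stat3 (126.9 against 469.7 CPM), Socs1 and Stat6 (each 73.2 against 171 CPM) and Socs2 (36.6 against 42.7 CPM) were below the wells, and Socs3 was at 0 in both. In the outlier CILP library, Jak1 was at 616 CPM, Stat3 at 531 CPM against 469.7 CPM in the wells, Stat5a at 84.9 CPM and Stat5b at 339.8 CPM. That library had no count of Socs1, which all 7 CILP libraries used here contained, nor of Socs2, Socs3, Cish, Stat6 or Jak3. The wells held 39 member counts among 23418 gene counts, in 5 of 12 wells, so their CPM rest on few counts.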

How the results depend on the processing

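Of 146 counts of called members recomputed under 10 alternatives for 15 results, 125 stayed within 1.5 times the reported count, 21 did not, and no called fold change reversed. Stat5a, not called in ILC2P against CLP (−2.49), was 0.88 in batch 1 alone. The 4 members called among wild-type populations were 2 in batch 1 alone. For CILP against CLP (2 members) the count was 1 without the batch term, in batch 1 alone and in batch 2 alone, and 1 to 2 with 1 library left out. For CILP against a4b7 CLP (2 members) it was 1 without the filter, without the batch term, in batch 1 alone and with the outlier put back, 0 in batch 2 alone, and 1 to 2 with 1 library left out. For ILC2P against CILP (2 members) it was 1 in batch 1 alone, 0 in batch 2 alone and 0 with only the compared groups. For ILC2P against CLP (2 members) it was 1 in batch 1 alone and 0 with only the compared groups, and the 2 in batch 2 alone were Socs1 and Stat5a (lower), not Cish. In both last cases the filter on those groups tested 3 and 2 members and left the called ones out. For the Tcf7 knockout in CILP (1 member) it was 0 in DESeq2, limma-voom, batch 1 alone, batch 2 alone and only the compared groups, where Socs2 was not tested, and 0 to 1 with 1 library left out. For ILCP against CILP and for the Id2 knockout in CILP, limma-voom called 1 where edgeR called 0. Causes were not tested, except that each batch alone holds fewer libraries. No paired analysis was possible because the replicate numbers follow accession order and the labels pair no libraries. The Tcf7 knockout in ILC2P could not be fitted in batch 1 alone, nor the Id2 comparisons in batch 2 alone. Depth limits the low members: 1 count was worth up to 34.1 CPM, so an absent transcript in a shallow ILC2P library was not detectable rather than shown absent.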
